A study of Homo sapiens with 6 samples.

Results

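The nuclear-encoded genes of the respiratory chain were taken as the protein-coding rows of the deposited gene table whose symbols begin with NDUF, UQCR, ATP5 or COX4 to COX8, or are SDHA to SDHD or CYC1. This gave 100 of the 58302 genes in the table, of which 19817 are protein coding. The rule works on names alone. RNA sequencing compared 3 control libraries with 3 libraries of cells treated with cyperotundone (CYT), a compound of Cyperus plants. Both groups were MDA-MB-231-DR, a human triple-negative breast cancer line derived from MDA-MB-231 that resists doxorubicin. The labels name the treatment but no dose or time for these libraries, and every library comes from this 1 line. The design asks which genes change with CYT in resistant cells. The labels do not say whether replicates were separate cultures, so the p-values measure the spread between these libraries, which may be technical.

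The respiratory chain lies in the inner mitochondrial membrane. Complexes I and II pass electrons from NADH and succinate to ubiquinone, complex III hands them to cytochrome c, and complex IV reduces oxygen, while complexes I, III and IV pump protons. Complex V, the ATP synthase, uses the returning protons to make ATP. Most subunits are encoded in the nucleus and imported, and a few core subunits are encoded by mitochondrial DNA. All complexes except complex II are therefore built from both genomes.

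The control libraries held 14050849 to 17770102 counts over all genes, and the CYT libraries held 13056270 to 14106017. Markers fixed for a mesenchymal triple-negative line were present, with mean FPKM in control of 247 for VIM, 41.7 for KRT18, 9.60 for EGFR and 6.46 for CD44. In CYT these were 102, 20.8, 1.53 and 5.75. ESR1 and PGR were near 0 in both groups, and ERBB2 was at 3.50 in control and 1.97 in CYT. The part of these differences in the results was not tested. The 2 libraries numbered 2 stood apart from the others of their group. Across the 93 members that were tested, the deviation of a library from its group mean had a Spearman rho with GC content of -0.62 in control replicate 2 and of -0.65 in CYT replicate 2, against 0.20 to 0.64 in the other 4 libraries. These points share library and depth and are given as a description.

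Most respiratory chain genes did not pass the test, and those that did moved both ways, with NDUFA2, NDUFAF7 and NDUFA4 the largest rises and NDUFAF5, NDUFV2 and NDUFS4 the largest falls. edgeR's quasi-likelihood test covered 15572 genes, and a gene was called with a Benjamini-Hochberg adjusted p under 0.05. Among the 93 tested members, 10 (10.8%) were called higher in CYT, where 15.7% of all tested genes were, and 4 (4.3%) were called lower, where 12.9% were. With the added demand of an absolute log2 fold change over 1, 7 members were higher beside a background of 15.2%, and 3 were lower beside 12.2%. The median log2 fold change was 0.17 over the members and 0.0064 over all tested genes, and the interquartile range of the members was -0.45 to 0.61. Every CYT library lay above every control library in 26 members (28.0%, against 23.4% of all genes) and below in 15 (16.1%, against 22.7%). All 14 called members had groups that did not overlap, but the calls rest on the same libraries, so this is no separate result. For a single gene, 3 libraries against 3 cannot give an exact permutation p below 0.1. The RNA came from whole cultures, so fewer cells of a kind and less RNA per cell cannot be told apart.

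These counts moved with the fit. With the replicate number as a block, 20 members were called higher and 11 lower, beside 20.0% and 19.8% of all genes. Upper-quartile scaling gave 16 higher and 2 lower, beside 18.5% and 10.4% of all genes, and put the median of all genes at 0.16, against 0.0064. A correction for GC content and length gave 15 higher and 18 lower, beside 23.8% and 23.1% of all genes. Without both libraries numbered 2, an alternative chosen after seeing the data, 20 were higher and 9 lower, beside 21.5% and 19.6%. Without CYT replicate 2 alone, 14 were higher and 8 lower, beside 18.6% and 17.0%. Without control replicate 3 these numbers were 5 and 0, and without CYT replicate 3 they were 6 and 0, with 5 and 9 members lower at an unadjusted p under 0.05 in edgeR. The shares of all genes fell too, to 10.3% higher and 7.36% lower without control replicate 3 and to 12.2% and 7.63% without CYT replicate 3. Without control replicate 1 the members called were 4 and 2, beside 10.9% and 7.41% of all genes, and without CYT replicate 1 they were 6 and 2, beside 12.3% and 8.48%. NDUFA2, NDUFAF7 and UQCRQ, all higher, kept their call in all 17 alternatives. NDUFA4, ATP5F1E, NDUFB3, NDUFV2 and NDUFAF5 kept it in 15. The size of some was less stable. With the GC and length correction the log2 fold change of UQCRQ was 0.71 in place of 1.13, that of NDUFB3 0.57 in place of 1.21, that of NDUFB1 0.68 in place of 1.04 and that of ATP5PF 0.55 in place of 0.97. By limma on log2(FPKM + 1) that of NDUFAF5 was -0.74 in place of -1.43. The mean FPKM of NDUFAF5 was 1.9 in control and 0.711 in CYT, and an added 1 shrinks the ratio of values this low.

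**Figure D1:**
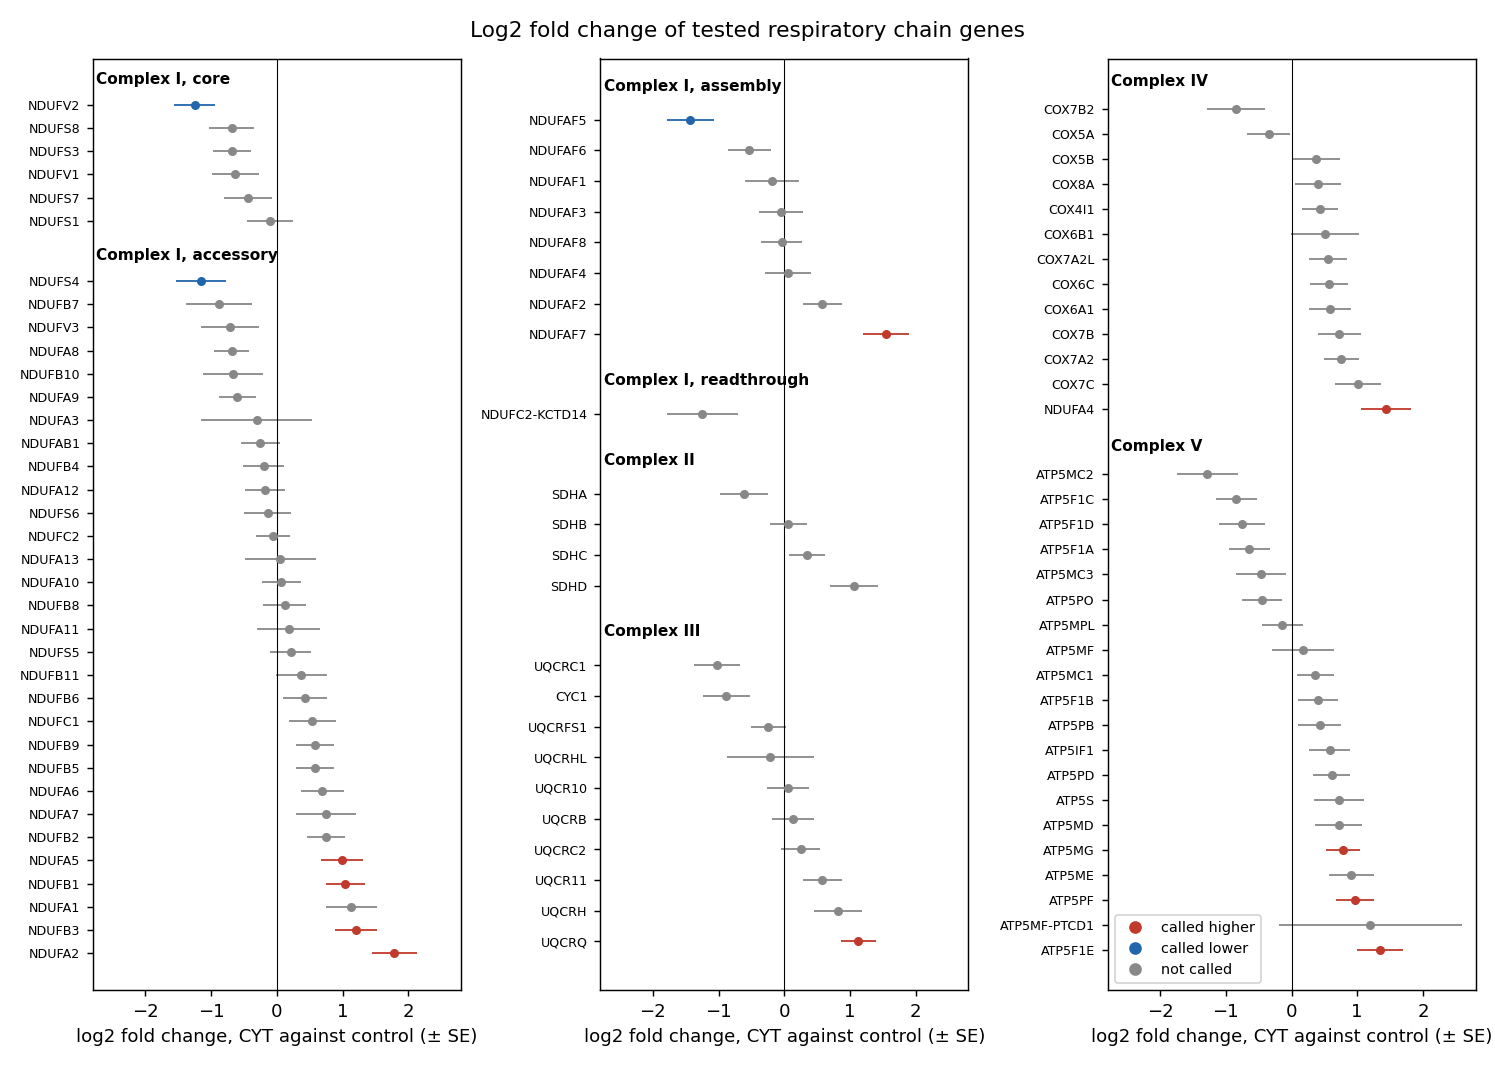
Log2 fold change of CYT against control (horizontal axis) for 92 of the 93 tested respiratory chain genes, by complex and kind of subunit, with bars of 1 standard error from edgeR. Red marks 10 genes called higher and blue 3 called lower, and the 6 core subunits of complex I drawn lie left of 0 while 11 of the 13 complex IV genes lie right of it, of which NDUFS1 turned under upper-quartile scaling and without control replicate 2, CYT replicate 1 or CYT replicate 3, and NDUFS1, NDUFS7 and COX8A after the GC and length correction.

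Promoters of the members held sequence elements known from genes of the respiratory chain. Of the 100 members, 80 had an entry in the RefSeq promoter table (GRCh38.p14, 250 bases before to 50 after the start). Both strands were searched for the core of nuclear respiratory factor 1 (NRF1), GCGCANGCG, which was in 24 of these 80 members, against 8.05% of all 27305 promoters. The ETS core CCGGAA, read by GABP among other ETS factors, was in 33 (41.2% against 17.6%). The YY1 motif AAGATGG was in 16 (20.0% against 6.06%), and TATAAA was in 7 (8.75% against 12.0%). The called genes did not share 1 pattern. Of the 10 genes called higher, 5 held the ETS core, 1 the NRF1 core, 2 the YY1 motif and 2 the TATA motif. The promoter entry of NDUFA5, 1 of these 10, held none of the 4 motifs and lies at chr7:123601602-123601901. That is outside the deposited locus of the gene, which ends at 123558255. Of the 3 genes called lower that had an entry, 1 held the NRF1 core, 1 the YY1 motif and 0 the ETS core. A match is a run of letters and no proof of binding. The 4 promoters printed here are those of the genes with the largest rise (NDUFA2, chr5:140647581-140647880, minus strand) and the largest fall (NDUFAF5, chr20:13784778-13785077, plus strand), of UQCRQ (chr5:132866392-132866691, plus strand), whose call held in every alternative, and of ATP5PF (chr21:25735005-25735304, minus strand), which held all 4 motifs. Each reads 5′ to 3′ on the strand of the gene, and capitals mark the matches.
NDUFA2: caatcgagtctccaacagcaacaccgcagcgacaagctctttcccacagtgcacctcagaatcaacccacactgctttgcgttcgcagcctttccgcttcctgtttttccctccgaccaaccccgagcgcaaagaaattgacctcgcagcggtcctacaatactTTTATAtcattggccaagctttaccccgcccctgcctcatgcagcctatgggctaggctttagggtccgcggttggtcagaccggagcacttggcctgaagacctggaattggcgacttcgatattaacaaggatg
NDUFAF5: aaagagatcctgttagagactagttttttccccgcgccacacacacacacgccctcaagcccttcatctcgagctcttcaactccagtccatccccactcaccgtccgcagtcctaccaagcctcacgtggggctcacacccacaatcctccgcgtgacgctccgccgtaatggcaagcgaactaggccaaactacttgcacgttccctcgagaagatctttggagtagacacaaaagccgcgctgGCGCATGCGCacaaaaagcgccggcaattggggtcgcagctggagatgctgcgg
UQCRQ: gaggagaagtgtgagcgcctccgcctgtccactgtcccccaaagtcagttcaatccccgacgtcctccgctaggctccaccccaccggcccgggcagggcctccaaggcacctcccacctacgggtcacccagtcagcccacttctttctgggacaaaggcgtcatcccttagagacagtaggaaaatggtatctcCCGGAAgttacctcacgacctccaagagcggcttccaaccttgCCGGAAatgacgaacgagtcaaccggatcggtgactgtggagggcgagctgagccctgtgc
ATP5PF: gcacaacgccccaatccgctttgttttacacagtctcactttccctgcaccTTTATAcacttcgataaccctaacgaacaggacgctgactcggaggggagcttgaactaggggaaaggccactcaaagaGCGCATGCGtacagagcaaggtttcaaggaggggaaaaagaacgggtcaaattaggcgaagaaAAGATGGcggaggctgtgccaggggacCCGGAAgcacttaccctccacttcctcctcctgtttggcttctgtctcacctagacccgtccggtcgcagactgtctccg
With the start at 0 and positions given for the first base of a match, NDUFA2 held a TATA motif at -86, on the opposite strand, and none of the other motifs. NDUFAF5 held NRF1 cores at -4 and -3, which overlap on the 2 strands of 1 palindrome. UQCRQ held ETS cores at -54 and -11. ATP5PF held the TATA motif at -199 on the opposite strand, the NRF1 core at -120, the YY1 motif at -57 and the ETS core at -30.

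Within complex I, the nuclear-encoded core subunits NDUFV1, NDUFV2, NDUFS1, NDUFS3, NDUFS7 and NDUFS8 had lower point estimates, and NDUFV2 passed the test. NDUFS1 turned higher under upper-quartile scaling, after the GC and length correction and without control replicate 2, CYT replicate 1 or CYT replicate 3, and NDUFS7 did after the correction. NDUFV2, an iron-sulfur subunit of the NADH-oxidizing arm (chromosome 18, 9102630 to 9134345, plus strand, hg38), had 104, 104 and 161 CPM (counts scaled to library size by the TMM method) in control and 61.7, 43.7 and 49.6 CPM in CYT. All CYT values lay below all control values, with a log2 fold change of -1.25 ± 0.31 (SE, n = 3 in each group) and an adjusted p of 0.0159. The call of NDUFV2 was lost without control replicate 3 (adjusted p = 0.0793) and without CYT replicate 3 (adjusted p = 0.0646).

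NDUFS3, NDUFS8, NDUFV1, NDUFS7 and NDUFS1 were not called. NDUFS3 was at 104, 104 and 103 CPM in control and at 76.1, 47.3 and 70.4 CPM in CYT, with no overlap (log2 fold change -0.68 ± 0.29, adjusted p = 0.11). NDUFS8 (log2 fold change -0.69 ± 0.34) and NDUFV1, which binds NADH (-0.63 ± 0.36), overlapped between groups, as did NDUFS7 (-0.44 ± 0.37) and NDUFS1 (-0.11 ± 0.35). With the GC and length correction NDUFS8 and NDUFV1 had estimates no lower than -0.32. The direction of NDUFS1 turned under upper-quartile scaling (0.04), and after the GC and length correction NDUFS1 (0.02) and NDUFS7 (0.14) had estimates above 0, while NDUFS3 was called lower (-0.67, adjusted p = 0.0144, and -0.68, adjusted p = 0.0294, with the block added).

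The 30 accessory subunits of complex I, which surround the core and do not carry electrons, moved both ways, with 4 called higher (13.3%, beside 15.7% of all genes), 1 lower (3.33%, beside 12.9%) and a median log2 fold change of 0.15. NDUFA2 (chromosome 5, 140638740 to 140647785, minus strand) had 49.8, 104 and 94.0 CPM in control and 271, 268 and 316 CPM in CYT. The lowest CYT value was thus above the highest control value, and the log2 fold change of 1.79 ± 0.34 (3.45-fold, adjusted p = 0.0045) was the largest rise among the members. NDUFB3, a subunit of the membrane arm, was at 34.2, 38.2 and 50.2 CPM in control and at 76.0, 123 and 85.3 CPM in CYT (log2 fold change 1.21 ± 0.32, adjusted p = 0.0191). NDUFB1, of the same arm, was at 38.7, 51.1 and 31.9 CPM and at 71.2, 95.0 and 84.1 CPM (1.04 ± 0.30, adjusted p = 0.0299). In both genes CYT replicate 2 was the highest library, and control and CYT did not overlap. NDUFA5 was at 28.5, 47.2 and 35.7 CPM in control and at 54.8, 81.8 and 84.1 CPM in CYT (0.99 ± 0.32, adjusted p = 0.0463). NDUFS4, whose loss is a known cause of complex I deficiency, went the other way, from 41.3, 81.9 and 44.1 CPM to 16.9, 32.7 and 25.3 CPM (-1.16 ± 0.38, adjusted p = 0.0477). NDUFA5 and NDUFS4 were near the threshold, and their calls held in 9 and 7 of 17 alternatives. Both were lost without any 1 of the control libraries, CYT replicate 1 or CYT replicate 3, with an adjusted p of 0.0513 to 0.171 for NDUFA5 and 0.059 to 0.153 for NDUFS4. NDUFB1 was lost without control replicate 1 (0.106), control replicate 3 (0.144), CYT replicate 1 (0.0554) or CYT replicate 3 (0.0742), and NDUFB3 without control replicate 1 (0.0849) or control replicate 2 (0.0652). NDUFS5 had the highest FPKM of complex I in control (277), at a log2 fold change of 0.21 ± 0.31 that became -0.50 after the GC and length correction and -0.027 without control replicate 2.

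Of the 8 NDUFAF genes, which assist the assembly of complex I and are no part of the finished enzyme, 1 was called in each direction. NDUFAF7, a mitochondrial methyltransferase (chromosome 2, 37231631 to 37253403, plus strand), had 10.8, 8.15 and 12.7 CPM in control and 24.1, 42.4 and 26.4 CPM in CYT. NDUFAF5, which hydroxylates NDUFS7 (chromosome 20, 13784950 to 13821582, plus strand), had 14.4, 23.9 and 23.9 CPM in control and 9.59, 7.76 and 5.72 CPM in CYT. Neither gene overlapped between groups. The log2 fold change was 1.55 ± 0.35 for NDUFAF7 (adjusted p = 0.0102) and -1.43 ± 0.36 for NDUFAF5 (adjusted p = 0.016). The call of NDUFAF5 was lost without control replicate 3 (0.0611) or CYT replicate 3 (0.0692). Over all 46 members of complex I, including the readthrough gene NDUFC2-KCTD14, 5 were called higher (10.9%) and 4 lower (8.7%), beside the same 15.7% and 12.9% of all genes, and the median was -0.06.

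**Figure D2:**
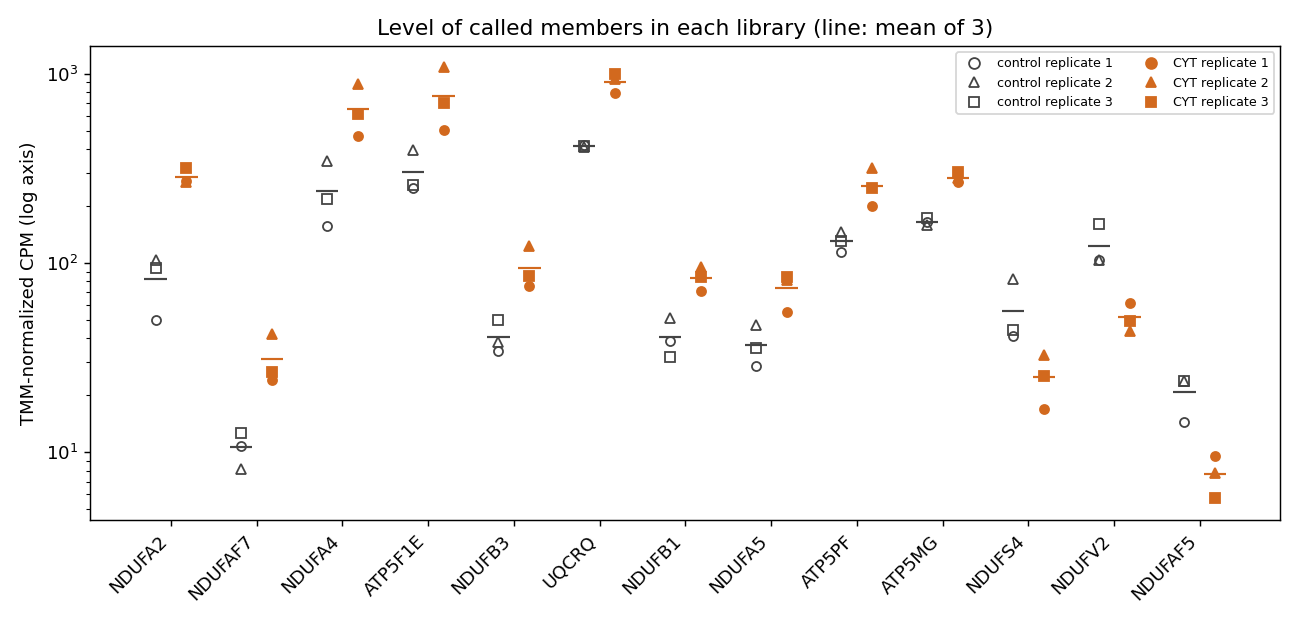
TMM-normalized CPM (vertical log axis) of 13 called respiratory chain genes in each library, with open grey symbols for control, filled orange symbols for CYT, a symbol shape for each replicate number and a line at the mean of 3. The groups do not overlap in any of the 13 genes, which were called from these same libraries. NDUFAF7 lies lowest in control and NDUFAF5 in CYT.

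Complex II, the succinate dehydrogenase that also belongs to the citric acid cycle, had 4 members and no call in either direction by edgeR, beside 15.7% of all genes higher and 12.9% lower, with 1 higher and 0 lower at an unadjusted p under 0.05, 1 higher by DESeq2 and 0 by limma. SDHD, a membrane anchor, was at 38.4, 43.0 and 42.9 CPM in control and at 61.4, 133 and 65.4 CPM in CYT. These values did not overlap (23.4% of all genes lay above without overlap), with a log2 fold change of 1.06 ± 0.36 and an adjusted p of 0.0506. SDHC, the other anchor, also had every CYT value above control (0.35 ± 0.27, adjusted p = 0.369). Its estimate ran from 0.21 without control replicate 1 to 0.56 with the GC and length correction. SDHA, the flavin subunit, had an estimate of -0.61 ± 0.36 that ran from -0.88 without control replicate 2 to -0.30 without control replicate 1. SDHB, the iron-sulfur subunit, had one of 0.06 ± 0.28 that became -0.24 after the GC and length correction, -0.011 without a filter and -0.073 without control replicate 2. Both SDHA and SDHB overlapped between groups. With the replicate block, SDHD was called higher (0.97, adjusted p = 0.0242). Its estimate was 0.61 without CYT replicate 2, the highest library, and 0.67 without both libraries numbered 2.

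In complex III, UQCRQ, a small subunit (chromosome 5, 132866560 to 132868031, plus strand), was the 1 call among 10 members in edgeR (beside 15.7% of all genes), and 0 were called lower (beside 12.9%), with 2 lower at an unadjusted p under 0.05 and 1 each by DESeq2 and limma. Its control libraries were nearly equal at 423, 411 and 415 CPM, and its CYT libraries were at 789, 940 and 995 CPM. The log2 fold change was 1.13 ± 0.26 (2.18-fold, adjusted p = 0.0103). UQCRC1, a large core protein of the matrix side, lay lower in CYT without passing the test, at 1310, 769 and 769 CPM in control and 526, 296 and 582 CPM in CYT (-1.02 ± 0.35, adjusted p = 0.0564). CYC1, the cytochrome c1, was at 518, 379 and 396 CPM and at 277, 127 and 300 CPM (-0.88 ± 0.36, adjusted p = 0.0968). Neither of these overlapped between groups (22.7% of all genes lay below without overlap), and both were called lower with the replicate block (UQCRC1 adjusted p = 0.0195, CYC1 adjusted p = 0.0267). The Rieske protein UQCRFS1 (-0.24 ± 0.26) and UQCRC2 (0.25 ± 0.30) were not called. UQCRHL, a near copy of UQCRH, held from 4.18% to 24.8% of the counts of the pair, so both are uncertain.

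Complex IV, the cytochrome c oxidase, had 13 tested members of 19, of which 11 had higher point estimates (COX8A not after the GC and length correction) and 2 lower, beside 7826 of 15572 genes with higher estimates in all, with a median log2 fold change of 0.56 that ran from 0.34 to 0.71 over the alternatives. edgeR called 1 of them higher (7.69%, beside 15.7% of all genes) and 0 lower (beside 12.9%), with 4 higher and 0 lower at an unadjusted p under 0.05, 3 and 0 by DESeq2, and 2 and 0 by limma. With the GC and length correction COX5A and COX7B2 were called lower. NDUFA4 carries a complex I name but is counted as a subunit of complex IV (chromosome 7, 10931951 to 10940256, minus strand). It had 157, 347 and 219 CPM in control and 468, 883 and 610 CPM in CYT. Replicate 2 was the highest library in both groups, and the groups did not overlap (1.44 ± 0.38, 2.71-fold, adjusted p = 0.0187). The call was lost without control replicate 1 (0.0694) or control replicate 3 (0.0776).

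COX4I1, the largest nuclear-encoded subunit, was at 318, 290 and 266 CPM in control and at 346, 370 and 465 CPM in CYT, without overlap but not called (0.43 ± 0.27, adjusted p = 0.251, against 0.51 and 0.0487 with the GC and length correction). COX5A (-0.35 ± 0.33) and COX5B (0.38 ± 0.36) had estimates of opposite sign, and both overlapped between groups. With the GC and length correction COX5A was called lower at -0.84 (adjusted p = 0.0193), and with the block added at -0.83 (adjusted p = 0.0174). COX8A had the highest FPKM of all tested members in control, 873 ± 192 (SD, n = 3), against 1170 ± 340 in CYT, and a log2 fold change of 0.40 ± 0.35, which turned to -0.05 after the GC and length correction. In mean control CPM, which is not per length, UQCRC1 (948) lay above COX8A (452). COX7A2 (0.76 ± 0.26, adjusted p = 0.0536) and COX7C (1.01 ± 0.35, adjusted p = 0.0576), chosen for mention after their values were seen, missed the threshold narrowly and were both called with the replicate block. With the GC and length correction COX7C was called at a smaller log2 fold change of 0.60 (adjusted p = 0.0266).

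The summed counts of complex IV took 0.262%, 0.270% and 0.301% of all gene counts in control and 0.387%, 0.483% and 0.440% in CYT, with no overlap. For the other 4 complexes the groups overlapped on this scale. All members together took 1.45% ± 0.0744 (SD, n = 3) in control and 1.75% ± 0.164 in CYT, from 1.37% to 1.51% against 1.57% to 1.90%. The MT-encoded mRNAs, part of the same total, lay between 2.24% and 3.33% in control and between 1.85% and 6.67% in CYT. With protein-coding genes without MT genes as the total, all members took 1.62% and 2.02%, and complex III also did not overlap (0.300% to 0.325% against 0.328% to 0.348%).

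**Figure D3:**
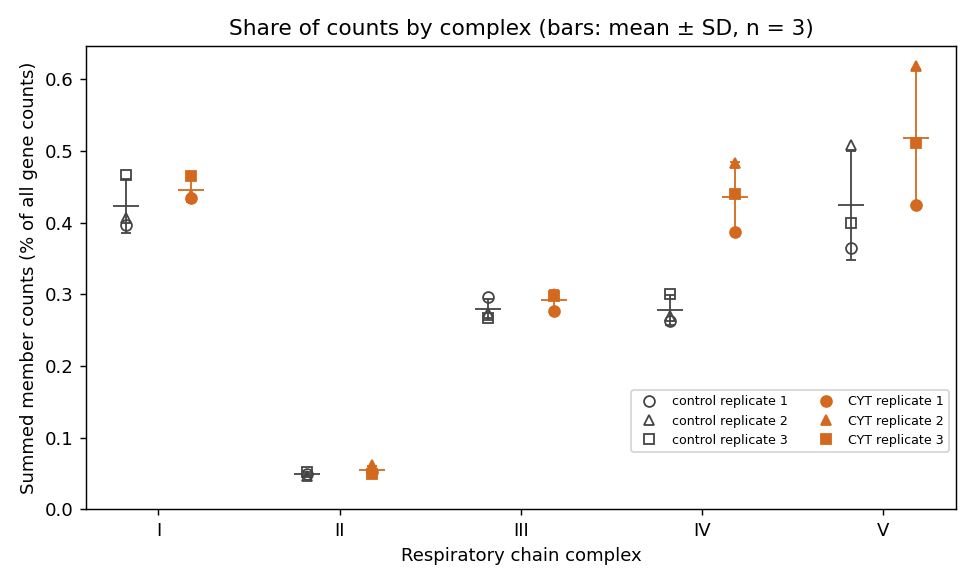
Summed counts of each complex as a percentage of all gene counts (vertical axis) in each library, with open grey symbols for control, filled orange symbols for CYT, and bars for the mean ± SD of 3. The complex IV shares in CYT (0.387% to 0.483%) lie above those in control (0.262% to 0.301%), and in the other 4 complexes the groups overlap.

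Tissue isoforms of complex IV were almost silent in these cells, with 1 exception. COX4I2, COX6A2, COX6B2, COX7A1, COX8C and NDUFA4L2 had at most 7 counts in any library and, with ATP5MGL of complex V, were the 7 members that did not pass the filter. COX7B2, the testis form of COX7B, had 358, 1213 and 443 counts in control and 416, 308 and 182 in CYT. The control libraries were spread widely and overlapped with CYT, and its log2 fold change was -0.85 ± 0.44 (adjusted p = 0.177). With the GC and length correction it was called lower at -1.39 (adjusted p = 0.0145), and with the block added at -1.43 (adjusted p = 0.0243). It took 4.13% to 27.1% of the counts of COX7B and COX7B2 together.

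Complex V had 20 tested members of 21 and 3 calls, all higher (15.0%, beside 15.7% of all genes). By edgeR 0 were called lower (beside 12.9%), with 2 lower at an unadjusted p under 0.05, 2 by DESeq2, 1 by limma on log2(FPKM + 1) and 3 with the replicate block (beside 19.8%). ATP5F1E, the epsilon subunit of the catalytic F1 head (chromosome 20, 59025467 to 59032382, minus strand), had 250, 394 and 259 CPM in control and 504, 1080 and 704 CPM in CYT, with replicate 2 the highest in both groups and no overlap (1.34 ± 0.35, adjusted p = 0.0198). ATP5PF, the F6 protein of the peripheral stalk, had 114, 146 and 131 CPM in control and 200, 317 and 248 CPM in CYT (0.97 ± 0.29, adjusted p = 0.0328). ATP5MG, a small subunit of the membrane part Fo, had 165, 159 and 173 CPM in control and 269, 280 and 301 CPM in CYT, with little spread in either group (0.78 ± 0.26, adjusted p = 0.0466). The call of ATP5F1E was lost without control replicate 1 (0.0755) or control replicate 3 (0.0848). Those of ATP5PF and ATP5MG held in 11 and 10 of 17 alternatives and were lost without any 1 library other than CYT replicate 2, with an adjusted p of 0.0502 to 0.121 for ATP5PF and 0.116 to 0.142 for ATP5MG. ATP5F1A, the alpha subunit, had an estimate of -0.64 ± 0.31 (adjusted p = 0.154) and ATP5F1C, the gamma subunit, one of -0.84 ± 0.31 (adjusted p = 0.0661). ATP5F1C was called lower with the replicate block (-0.83, adjusted p = 0.0202), by DESeq2 (-0.81, adjusted p = 0.0485) and with the GC and length correction (-1.14, adjusted p = 0.00158), and without CYT replicate 2 both were called lower (ATP5F1A adjusted p = 0.0483, ATP5F1C adjusted p = 0.0272). ATP5F1B, the catalytic beta subunit, was at 0.40 ± 0.30 (adjusted p = 0.35). ATP5MD had the highest FPKM of complex V in control (254), with a log2 fold change of 0.72 ± 0.36. ATP5MC2 (-1.28 ± 0.46, adjusted p = 0.0653) and ATP5F1D (-0.75 ± 0.35, adjusted p = 0.143), chosen for mention after their values were seen, were not called. Both lay lower without overlap (22.7% of all genes did). With the replicate block both were called lower (ATP5MC2 adjusted p = 0.00342, ATP5F1D adjusted p = 0.0376).

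Called members split by the length of the coding sequence, a division chosen after the values were seen. Of 44 tested members with a longest coding sequence of at most 450 bases, 9 were called higher and 0 lower, with a median log2 fold change of 0.57. At an unadjusted p under 0.05 edgeR had 1 of them lower, DESeq2 and limma called 0 lower, and the fit with the replicate block called 1 lower. Of 49 longer members, 1 was higher and 4 were lower, with a median of -0.19. Among all tested protein-coding genes, 14.2% of the 808 short ones were higher and 9.41% lower, and of the 11947 longer ones 12.3% were higher and 14.9% lower. Spearman's rho between log2 fold change and coding length was -0.49 over the 93 members and -0.04 over 12755 coding genes. These are correlations across genes, which share the same 6 libraries and are no independent replicates. Across the alternatives the rho of the members ran from -0.56 to -0.33, the latter with the GC and length correction, in which 10 short members were higher and 4 lower, and 5 longer ones were higher and 14 lower. With the length of the whole transcript in place of the coding part the rho of the members was -0.04, and with GC content it was -0.24. The part of GC content and of the libraries numbered 2 in this split was not tested beyond these fits.

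**Figure D4:**
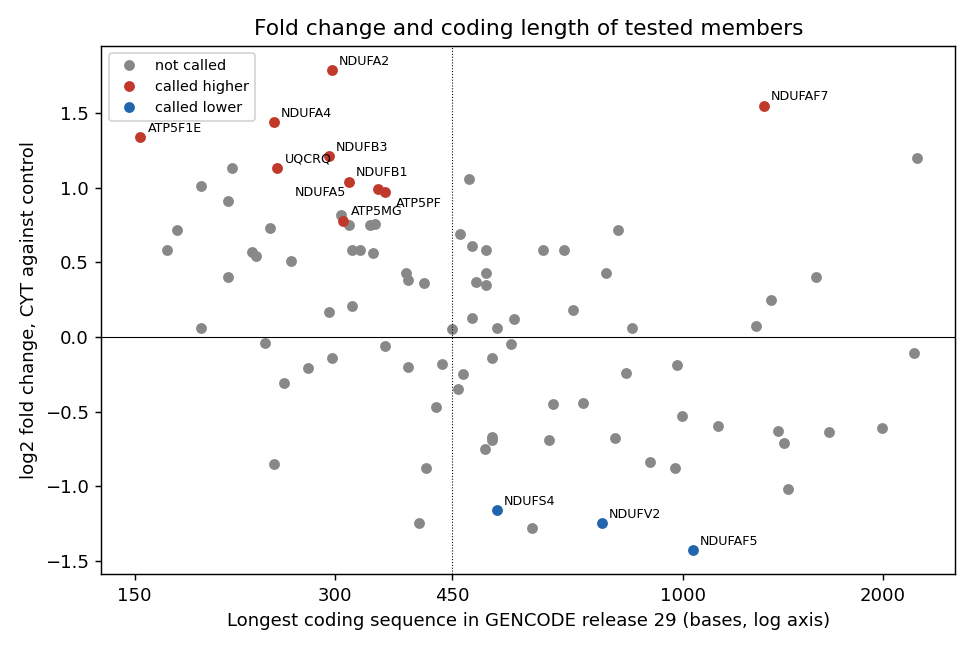
Log2 fold change of CYT against control (vertical axis) by the longest coding sequence in GENCODE release 29 (bases, horizontal log axis) for 92 of the 93 tested respiratory chain genes, with red for called higher, blue for called lower and grey for not called. Left of the dotted line at 450 bases lie 9 genes called higher and 0 called lower, and right of it 1 called higher and 3 called lower.

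Other genes of the pathway were described from 4 lists. Of 45 assembly factors outside the NDUFAF genes, 0 were called higher (beside 15.7% of all genes) and 6 lower (13.3%, beside 12.9% of all genes), with a median log2 fold change of -0.22. At an unadjusted p under 0.05 edgeR had 2 higher and 11 lower, DESeq2 called 1 higher and 9 lower, and limma called 0 higher and 7 lower. With the replicate block 3 were called higher and 11 lower, beside 20.0% and 19.8% of all genes. PET117 (-2.73 ± 0.73), COX19 (-1.55 ± 0.34) and COA4 (-1.24 ± 0.35), all of which serve complex IV, were lower, and so was SDHAF3, which serves complex II (-1.49 ± 0.38). COX19, a copper-handling protein, had 12.0, 12.4 and 13.7 CPM in control and 4.51, 3.20 and 5.24 CPM in CYT, without overlap. PET117 rests on few counts, at 2.29, 3.30 and 5.54 CPM in control and 0.0705, 0.569 and 1.03 CPM in CYT. COX19 kept its call in 17 of 17 alternatives, with log2 fold changes from -1.69 to -0.85, the smallest by limma on log2(FPKM + 1), where PET117 was at -1.49. The added 1 shrinks fold changes of genes with low FPKM. The call of PET117 was lost without control replicate 3 (adjusted p = 0.0823), that of SDHAF3 without control replicate 2 (0.0541) or CYT replicate 1 (0.0647), and that of COA4 without control replicate 1 (0.101), control replicate 3 (0.0865) or CYT replicate 1 (0.0997).

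Of 13 regulators of mitochondrial and respiratory genes, 2 were called higher (15.4%, beside 15.7% of all genes) and 4 lower (30.8%, beside 12.9%), with a median of -0.35. NRF1, whose motif was in 24 of the member promoters, had 33.7, 30.2 and 27.8 CPM in control and 6.28, 7.05 and 5.56 CPM in CYT, a log2 fold change of -2.28 ± 0.31 (adjusted p = 0.0012) that was called in 17 of 17 alternatives, from -2.37 to -1.43. POLRMT, the mitochondrial RNA polymerase, went from 313, 204 and 227 CPM to 52.2, 15.0 and 48.1 CPM (-2.69 ± 0.47), and TFB1M from 16.6, 15.1 and 14.2 CPM to 5.08, 2.63 and 2.78 CPM (-2.13 ± 0.37). All 3 genes fell without overlap between groups. On log2(FPKM + 1) in limma, where the added 1 shrinks those of genes with low FPKM, the log2 fold changes of NRF1 and TFB1M were -1.43 and -1.30. GABPA, the DNA-binding part of GABP, rose from 8.68, 16.3 and 10.7 CPM to 27.2, 83.8 and 30.4 CPM (1.98 ± 0.49, adjusted p = 0.0146), with CYT replicate 2 far above the other libraries. Its call was lost without control replicate 1 (0.0641) or control replicate 3 (0.0645), and without CYT replicate 2 its log2 fold change was 1.26. Exons of GABPA overlap those of ATP5PF, also called higher, on the opposite strand, so their reads may be shared.

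The 13 mRNAs of the mitochondrial genome had a median of 0.68 with 2 called higher (15.4%, beside 15.7% of all genes), MT-ND6 (1.83 ± 0.52, adjusted p = 0.0277) and MT-ND5 (1.32 ± 0.44, adjusted p = 0.0497), and 0 lower by edgeR (beside 12.9%). At an unadjusted p under 0.05 these were 4 and 0, by DESeq2 4 and 0, by limma 0 and 0, and with the replicate block 3 and 0. MT-ND6 had 124, 191 and 117 CPM in control and 730, 153 and 655 CPM in CYT, so that CYT replicate 2 lay within the control range. The call of MT-ND6 was lost without control replicates 1 or 3 or CYT replicates 1 or 3 (adjusted p from 0.0828 to 0.103), and that of MT-ND5 without any 1 library other than CYT replicate 2 (0.0717 to 0.168). Of 13 citric acid cycle enzymes, 1 was higher (7.69%, beside 15.7%), FH (0.83 ± 0.26, adjusted p = 0.0397), and 0 were lower (beside 12.9%), with a median of 0.20, and edgeR at an unadjusted p under 0.05, DESeq2 and limma gave the same counts. The call of FH was lost without any 1 library other than CYT replicate 2 (0.0836 to 0.139). Over the 17 alternatives MT-ND6 was called in 9, at 0.95 to 2.55 and an adjusted p of up to 0.265. MT-ND5 was called in 7, at 0.73 to 1.91 and up to 0.296. FH was called in 9, at 0.44 to 0.98. The lowest of each came with the GC and length correction and the block together.

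Reads of some members can be shared with other genes. The table holds 154 pseudogene rows with member names, whose counts were 0.912% to 1.26% of those of the members in any library. NDUFV2P1, a pseudogene of NDUFV2, was called lower beside its parent, from 41.4, 40.0 and 42.1 CPM to 20.0, 11.2 and 14.5 CPM (log2 fold change -1.43 ± 0.32, adjusted p = 0.00897). ATP5F1EP2 went from 4.15, 26.2 and 9.85 CPM to 25.1, 72.1 and 33.4 CPM beside ATP5F1E and was not called (1.69 ± 0.64, adjusted p = 0.0748). In these pairs the pseudogene had the sign of its parent, as did NDUFA5P11 (0.31, adjusted p = 0.752) beside NDUFA5. Of the 7 pseudogenes tested, NDUFB4P12 had an estimate of 0.09 where NDUFB4 had -0.20, and UQCRFS1P1 one of 0.00 where UQCRFS1 had -0.24. In GENCODE release 29, 53 members overlap an exon of another gene, 40 of them on the opposite strand, and 8 of the 14 called members are among the 53. ATP5PF overlaps GABPA, which was called higher as well, and JAM2 on the opposite strand. NDUFA2 overlaps IK and TMCO6, UQCRQ overlaps GDF9 and NDUFAF7 overlaps CEBPZ and PRKD3. Whether strand was used in counting is not stated, so reads of such neighbours cannot be told apart. The length implied by count and FPKM was from 0.959 to 3.10 times the exonic length of that release. Against the transcript with the longest coding sequence it was from 1.0 to 22.4 times (median 3.14). Both limit the comparison of FPKM between genes.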

How the data were processed

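RNA was extracted from cells, mRNA was separated and fragmented, and cDNA libraries were sequenced on an Illumina NovaSeq instrument. Reads of poor quality, adapters and rRNA were removed by the authors before alignment with Hisat2. The submitters' processing notes name hg38 and FastQC 0.12.1. The authors deposited raw counts per gene, not normalized, in 6 columns, and FPKM values, which the methods ascribe to Stringtie. The program, strand setting and annotation used for counting are not given in the sources used here. The total counts per library, given in the report, limit the precision of low genes.

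CYT and control were compared in R 4.3.3 by edgeR (version 4.0.16), on TMM-scaled counts of the 15572 genes that filterByExpr kept at a minimum count of 10. Its quasi-likelihood test was used, and p was adjusted after Benjamini and Hochberg over those genes. SE values come from the fold change and the F statistic, and the common biological coefficient of variation was 37.5%. The members and gene lists were chosen with earlier results of these data known. Named are the called members, the member of highest FPKM in each complex, the core subunits, the tissue isoforms and up to 4 called genes of each other list. The values of 1 member are not reported here, though it is in the counts. The alternatives were upper-quartile normalization, DESeq2 1.42.0, limma 3.58.1 on log2 FPKM with a pseudocount of 1 or 0.1, an unfiltered table, a minimum mean of 5 CPM, a block for the replicate number, a fit restricted to coding genes, a correction for GC content and length with and without the block (natural splines with 5 degrees of freedom for each library), and leaving out each library in turn. The scripts were tested on simulated data.

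Replicate numbers come from the sample titles. Across genes, the deviations from the group mean of libraries with the same number had r = 0.188, 0.458 and 0.124 for numbers 1, 2 and 3. The block takes the same number as a pair, which the labels do not state. Control 1 with CYT 3 (0.303) and control 3 with CYT 1 (0.201) correlated more than 2 of these pairs. Within groups r ran from 0.904 to 0.971, and no 2 replicates agreed within sampling noise (lowest chi-square per gene 25). Lengths and overlaps come from GENCODE release 29 (GRCh38), in which 97 members have the locus of the table. Promoters come from RefSeq (GRCh38.p14). Members without an entry included NDUFB5, NDUFB9, NDUFC2, NDUFS5, NDUFAF6, SDHC, CYC1, UQCRB, UQCRHL, COX4I2, COX7A1, COX6C, ATP5F1B, ATP5F1D, ATP5MC3, ATP5MF, ATP5MGL, ATP5MF-PTCD1 and ATP5S.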

Additional observations from a re-analysis of the deposited data

How the results depend on the processing

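The count of members called higher, 10 in the fit as reported, was 16 with upper-quartile normalization, 16 with DESeq2, 6 without a filter, and 20 without both libraries numbered 2, an alternative added after seeing the data. The shares of all genes called higher in these 4 fits were 18.5%, 18.8%, 9.2% and 21.5%, against 15.7% as reported. The count called lower, 4 as reported, was 2, 7, 5 and 9 in these fits (10.4%, 15.1%, 6.81% and 19.6% of all genes), 2 under a minimum mean of 5 CPM (12.2% of all genes), 2 in a fit of coding genes alone (12.5%), and 18 with the GC and length correction, in which 23.1% of all genes were lower. Leaving out 1 library gave 4 (without control replicate 1) to 14 (without CYT replicate 2) higher and 0 (without control replicate 3 or CYT replicate 3) to 8 lower (without CYT replicate 2), with fewer libraries in each fit. The median of the members, 0.17, was 0.32 with upper-quartile normalization and 0.02 with the GC and length correction, and 0.05 to 0.35 when 1 library was left out. Without a filter the median of all genes was 0.41. The CYT share of counts, 1.75%, was 2.02% with protein-coding genes without MT genes as the total, and 3 instead of 7 promoters held the TATA motif in the window of 100 bases before to 50 after the start.

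The replicate block treats libraries of the same number as pairs, which the labels do not state. With it, 20 members were higher and 11 lower (20.0% and 19.8% of all genes), and the 14 calls of the fit without it were all kept. With the GC and length correction and the block together, 15 were higher and 17 lower, beside 23.1% and 22.6% of all genes.

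Direction turned for several values near 0. The complex I median became 0.094 with upper-quartile normalization, 0.052 under a minimum mean of 5 CPM and 0.025 in a fit of coding genes alone, and ran from -0.14 to 0.035 (without CYT replicate 1) when 1 library was left out. The complex III median became -0.089 with the GC and length correction and ran from -0.084 (without control replicate 1) to 0.36. NDUFS1 became 0.039 with upper-quartile normalization, 0.018 with the GC and length correction, 0.015 with the block added, and ran from -0.51 to 0.074 when 1 library was left out. SDHB became -0.011 without a filter, -0.24 with the correction, -0.23 with the block added and -0.047 without both libraries numbered 2, and ran from -0.073 to 0.21. NDUFS5 became -0.50 with the correction and -0.47 with the block added, and ran from -0.027 to 0.40. COX8A became -0.045 and -0.037, and NDUFS7 0.14 and 0.15, in these 2 corrected fits. UQCRC2 became -0.028 without both libraries numbered 2 and ran from -0.0012 to 0.37. The cause of these changes was not tested.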

Other observations

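Some pairs of proteins that work together differed in their calls. NDUFAF5 was called lower while NDUFS7, which it hydroxylates, was not called. NDUFV2 was called lower while NDUFV1, its partner in the NADH-oxidizing module, was not called. NDUFS7 (-0.44 ± 0.37) and NDUFV1 (-0.63 ± 0.36) also had negative estimates. Within the F1 head of ATP synthase, ATP5F1E was higher while the median of the 5 F1 genes was -0.64. These pairs were chosen after their values were seen, and differences between the 2 genes of a pair were not tested. Per length, the median FPKM of complex IV was 62.5 in control and 84.1 in CYT, that of complex III was 76.1 and 62.7, that of complex I was 17.9 and 16.0, that of complex V was 26.5 and 27.1, and that of complex II was 10.6 and 12.9. For complex III the median log2 fold change was 0.09, with 6 higher and 4 lower estimates. Its mean share of all gene counts was 0.279% in control and 0.292% in CYT.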
